A study of Mus musculus with 3 samples.

Results

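Exosomes, nanometre-scale vesicles shed by cells, were collected from cultures of mouse bone-marrow mesenchymal stem cells (MSCs), and 9 miRNAs that mark other cell lineages were examined in them. The 9 were chosen by name from the 1881 mouse miRNAs on the array, and all 9 were on it. They were mmu-miR-451a and mmu-miR-144-3p for red cells, mmu-miR-223-3p for myeloid cells, mmu-miR-142a-3p and mmu-miR-142a-5p for blood cells of all kinds, mmu-miR-150-5p for lymphocytes, mmu-miR-126a-3p and mmu-miR-126a-5p for endothelium and mmu-miR-122-5p for hepatocytes. The prefix for mouse is left off from here on. The question put to the data was which of these markers the vesicle RNA held in each group.

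The donors were male wild-type C57BL/6 mice of 4 to 6 weeks, and the adherent marrow cells were used at passages 3 to 6 after growth in low-glucose medium with 10% fetal bovine serum. Cultures stood for 24 h under normal oxygen (N-Exo), under low oxygen (H-Exo), or under low oxygen in the presence of GW4869 (H+G-Exo), which blocks neutral sphingomyelinase and with it a route of exosome release. In every group, medium from 10 dishes was cleared by low-speed spins, passed through a 0.2 µm filter and ultracentrifuged for 70 min, with a wash and a repeat spin. The labels do not say what the medium held during the 24 h. Each group was 1 array, so differences between groups stand without replicates and were not tested. In bulk vesicle RNA, fewer cells or vesicles of a type and less RNA per cell or vesicle cannot be told apart.

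As background, some miRNAs are made almost wholly in 1 lineage and serve as tags for it. miR-144 and miR-451a are cut from a shared transcript that the erythroid factor GATA1 switches on, and miR-451a is matured by Argonaute 2 without Dicer. miR-223-3p restrains granulocyte production, miR-142 is active throughout blood formation, and miR-150-5p limits the factor c-Myb in maturing lymphocytes. The endothelial miR-126a lies within a gene of the same cells, Egfl7, and acts on VEGF signalling, and miR-122-5p is the dominant miRNA of the hepatocyte. Mesenchymal stromal cells are expected to make little of them, so they are commonly read as signs of other cells or of material from outside the culture.

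The mature sequences of 6 of the 9 were matched in RefSeq (GRCm38.p6) and are shown 5′ to 3′ because each array probe reads 1 of these arms; capitals mark the seed, bases 2 to 8, with which a miRNA chooses its targets.
miR-451a: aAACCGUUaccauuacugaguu
miR-144-3p: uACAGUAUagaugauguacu
miR-223-3p: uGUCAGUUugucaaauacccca
miR-142a-3p: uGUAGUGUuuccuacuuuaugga
miR-142a-5p: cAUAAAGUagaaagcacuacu
miR-126a-3p: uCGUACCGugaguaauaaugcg
None of the 6 shares its seed with another mature miRNA of the RefSeq table. miR-451a lies at chr11:78073186-78073207 and miR-144-3p at chr11:78073047-78073066, both on the plus strand, and their hairpins are 99 bases apart. miR-223-3p lies at chrX:96242884-96242905 on the plus strand, within a long noncoding RNA gene, F630028O10Rik. The 2 arms of miR-142a lie at chr11:87756903-87756925 (3p) and chr11:87756867-87756887 (5p), and miR-126a-3p at chr2:26591402-26591423 within Egfl7, all on the plus strand. Each member had 2 probes, which differ by 1 base in length, and each probe was printed as 15 spots. The miRNA target of every probe of these 6 occurs in only 1 mature miRNA of the RefSeq table.

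Presence was read from each member's own spots. The scanner software marks a spot as well above background when it exceeds the local background by a set margin, and a probe counted as detected when more than 50% of its spots carried that mark. A miRNA counted as detected when at least 1 of its probes did. By this rule 2 of the 9 members, miR-451a and miR-223-3p, were detected on each array, against 36.7% of all 1881 miRNAs for N-Exo, 31.3% for H-Exo and 36.1% for H+G-Exo. The other 7 members were detected on no array. Of their spots, 0 of 208 for N-Exo, 0 of 204 for H-Exo and 1 of 200 for H+G-Exo were well above background. Over all miRNA spots of the arrays that share was 33.3%, 27.8% and 32.7%. The array's own negative controls, spots with no target, were well above background in 0 of 975, 0 of 980 and 0 of 984 spots. Values below are the background-corrected signal in the scanner's intensity units, unscaled between arrays unless said, as the mean ± SD over the spots of 1 probe. That SD is technical error within an array.

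miR-451a, the red-cell miRNA, was present on all 3 arrays and was dimmest in H+G-Exo. Its probes are printed to show the base by which they differ, the last one at their 3′ end, which pairs with the first base of the miRNA.
22-base probe: aactcagtaatggtaacggttt
21-base probe: aactcagtaatggtaacggtt
The 22-base probe read 63.7 ± 5.76 for N-Exo, 46.3 ± 3.59 for H-Exo and 22.5 ± 4.85 for H+G-Exo. The 21-base probe read 33.4 ± 4.43, 23.8 ± 3.41 and 12.0 ± 3.02 in the same order. Both probes thus ran from N-Exo down to H+G-Exo before scaling. For the 22-base probe the H+G-Exo spots read at most 32.5 and those of H-Exo at least 41.0. On the 21-base probe the brightest H+G-Exo spot, 18.6, just reached the dimmest H-Exo spot, 18.2. The share of all probes whose spots separate between these arrays was not counted. With both probes together, 30 of 30 spots were well above background for N-Exo, 29 of 30 for H-Exo and 11 of 30 for H+G-Exo. All 11 were spots of the 22-base probe, and the 21-base probe was not detected in H+G-Exo. Of the 30 spots in H+G-Exo, 25 still exceeded the brightest negative control of that array, which read 10.5. The dimmest probe detected on that array read 17.6, so miR-451a stood near the limit of detection there.

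miR-144-3p, made from the same transcript as miR-451a, was at background everywhere. Its 20-base probe read 0.0136 ± 2.57 for N-Exo, -0.249 ± 2.23 for H-Exo and -0.63 ± 2.13 for H+G-Exo. Over both probes the brightest spots read 3.98, 3.49 and 2.01, and no spot was well above background or above the brightest negative control. Its opposite arm, miR-144-5p, was detected on no array either, with 0 of 30 spots well above background on each. So 1 of the 2 neighbouring erythroid miRNAs gave signal on the array and the other did not. Their probes differ in sequence, and whether both would respond equally to equal amounts was not tested.

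miR-223-3p, the myeloid miRNA, was present on all 3 arrays at a dim level. The 20-base probe read 32.7 ± 3.55 for N-Exo, 22.2 ± 3.33 for H-Exo and 28.9 ± 5.13 for H+G-Exo, and the 21-base probe 32.9 ± 5.83, 20.0 ± 2.60 and 27.6 ± 4.11. The 2 probes gave the same order, N-Exo above H+G-Exo above H-Exo, and the spots of H+G-Exo overlapped those of both other arrays. Well above background were 30 of 30 spots for N-Exo, 22 of 28 for H-Exo and 29 of 30 for H+G-Exo, and every spot exceeded the brightest negative control of its array. The opposite arm, miR-223-5p, was not detected, although 27 of its 30 spots in N-Exo and 26 of 27 in H-Exo, but 13 of 30 in H+G-Exo, passed the software's more lenient test for a positive signal.

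**Figure D1:**
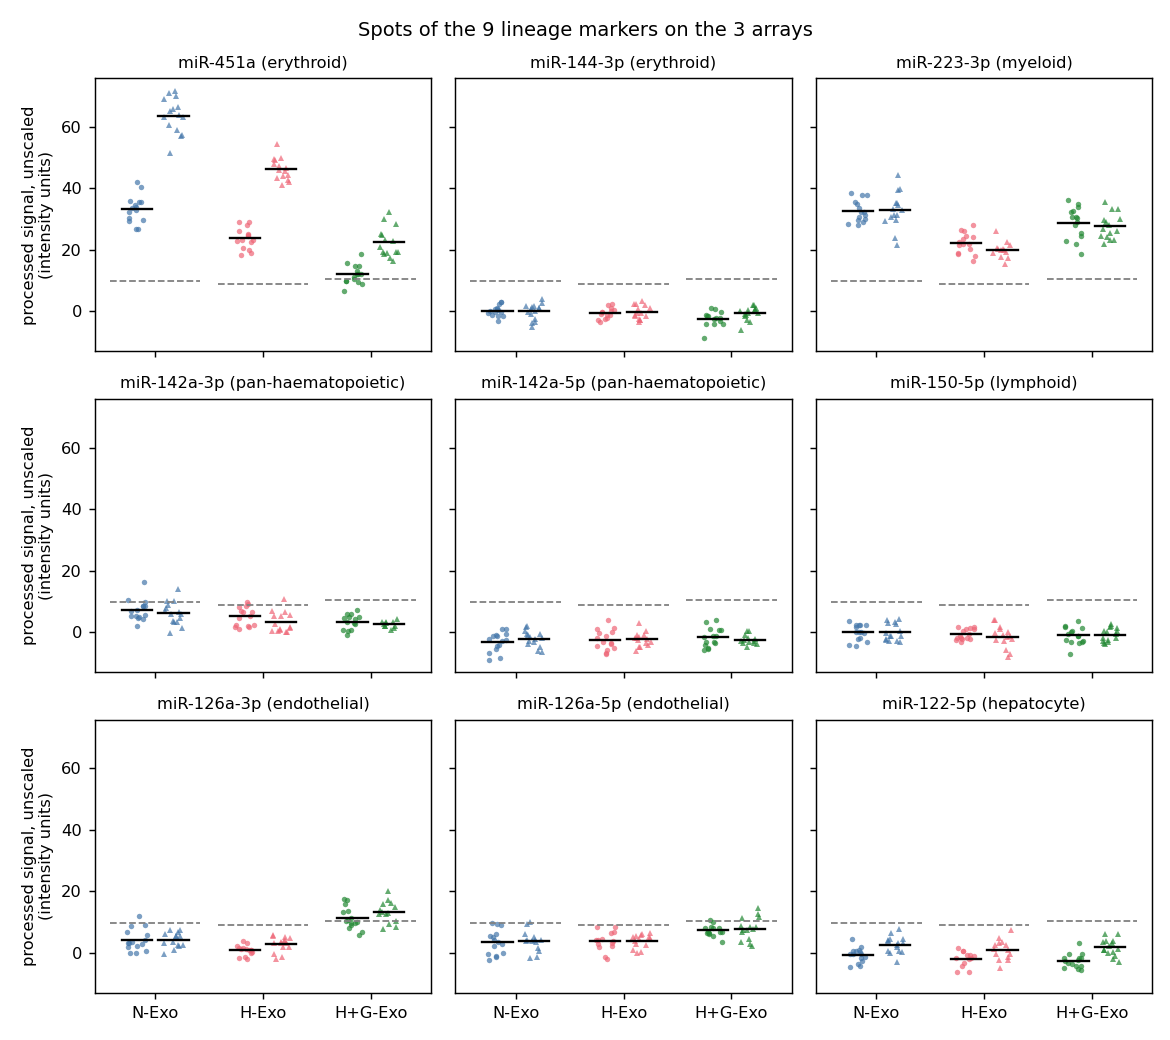
Each panel plots 1 of the 9 miRNAs on the 3 arrays, with the unscaled processed signal in intensity units on the vertical axis; each point is a spot, circles and triangles are the 2 probes, black bars are probe means and the dashed line is the brightest negative control of the array. miR-451a and miR-223-3p stand above that line except for 5 spots of miR-451a in H+G-Exo, and of the other 7 miRNAs miR-126a-3p in H+G-Exo has the most spots over it, 18 of 29.

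Neither arm of the broad blood-cell marker miR-142a was detected. The 23-base probe of miR-142a-3p read 7.26 ± 3.44 for N-Exo, 5.14 ± 3.09 for H-Exo and 3.42 ± 2.44 for H+G-Exo. These means lay above the negative controls, whose mean was -0.0343 ± 2.93 for N-Exo, 0.658 ± 2.83 for H-Exo and 0.870 ± 3.02 for H+G-Exo (SD over spots), but within reach of their spread. Only 6 of 30 spots for N-Exo, 3 of 30 for H-Exo and 0 of 25 for H+G-Exo exceeded the brightest negative control. By the lenient test, which asks only whether a spot is significantly positive, 24 of 30, 15 of 30 and 8 of 25 spots passed, against 10.3%, 14.6% and 17.5% of the negative controls. On each array miR-142a-3p thus gave more positive spots than the negative controls without reaching the detection rule, and it was dimmest in H+G-Exo on both probes. Unscaled, both probes were brightest in N-Exo, while after scaling by the factors given with the group comparisons, the 23-base probe was brightest in H-Exo, at 0.0219 against 0.0174 in N-Exo. miR-142a-5p read below 0 on average on both probes of every array, and 0 of 30, 1 of 30 and 1 of 28 spots passed the lenient test.

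miR-150-5p, the lymphocyte miRNA, was at background on all arrays. Its probe means lay between -1.42 and 0.0173, and 2 of 30, 2 of 30 and 0 of 30 spots passed the lenient test in N-Exo, H-Exo and H+G-Exo. The opposite arm, miR-150-3p, which is usually the minor product, was detected on all 3 arrays instead. Its brightest probe read 135 ± 20.5 for N-Exo, 77.8 ± 18.3 for H-Exo and 70.4 ± 15.5 for H+G-Exo. The probes of miR-150-3p pair with only 10 to 13 bases at the 3′ end of the miRNA and are rich in G and C, 60.0% to 69.2%. Whether other RNA contributed to that signal was not tested.

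The endothelial miR-126a was not detected, but its signal was highest in H+G-Exo. The 19-base probe of miR-126a-3p read 4.27 ± 2.42 for N-Exo, 2.83 ± 2.41 for H-Exo and 13.3 ± 3.45 for H+G-Exo, and the 18-base probe 4.32 ± 3.58, 0.857 ± 1.65 and 11.3 ± 3.59. On the 18-base probe the dimmest H+G-Exo spot read 5.69 and the brightest H-Exo spot 3.74. On the 19-base probe these values were 7.75 and 5.74, so before scaling the spots of the hypoxic arrays did not overlap. How many of all probes separate these arrays in this way was not counted. Unscaled signals were generally brighter with GW4869, by a median log2 difference of 0.57 over the 570 miRNAs detected on both hypoxic arrays. For miR-126a-3p in H+G-Exo, 29 of 29 spots passed the lenient test, 18 of 29 exceeded the brightest negative control and 1 of 29 was well above background. In N-Exo the lenient test was passed by 13 of 29 spots and in H-Exo by 7 of 30. Divided by the array's scale factor, the 19-base probe stood at 0.0102, 0.012 and 0.0283, so H+G-Exo was also brightest on that scale. The spots of H+G-Exo and H-Exo then overlapped on both probes of miR-126a-3p. miR-126a-5p followed with smaller values, a mean over both probes of 3.71 ± 3.67 for N-Exo, 3.87 ± 2.63 for H-Exo and 7.63 ± 2.88 for H+G-Exo. Its spots passed the lenient test in 16 of 29, 17 of 28 and 25 of 29 cases, and 1, 0 and 5 of them exceeded the brightest negative control. After scaling, its brighter probe no longer set H+G-Exo apart from H-Exo, at 0.0169 and 0.0167. miR-126b, which is read from the opposite strand of the same locus, was detected in neither arm.

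miR-122-5p, the hepatocyte miRNA, was detected on no array. The 20-base probe read 2.67 ± 2.75 for N-Exo, 1.11 ± 3.23 for H-Exo and 1.78 ± 2.68 for H+G-Exo, and the 19-base probe was below 0 on average on each array. No spot was well above background or above the brightest negative control, and 6 of 30, 2 of 27 and 2 of 30 passed the lenient test, shares of 20.0%, 7.41% and 6.67%. The negative controls passed it in 10.3%, 14.6% and 17.5% of spots, so only the N-Exo share was above theirs. miR-122-3p was not detected either.

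If a miRNA is counted by the lenient test, with more than 50% of the spots of a probe positive, 4 of the 9 members passed on each array. This compares with 55.6% of all miRNAs for N-Exo, 49.8% for H-Exo and 53.9% for H+G-Exo. Beside miR-451a and miR-223-3p these were miR-142a-3p and miR-126a-5p in N-Exo and H-Exo, and the 2 arms of miR-126a in H+G-Exo. miR-144-3p, miR-142a-5p, miR-150-5p and miR-122-5p passed on none.

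**Figure D2:**
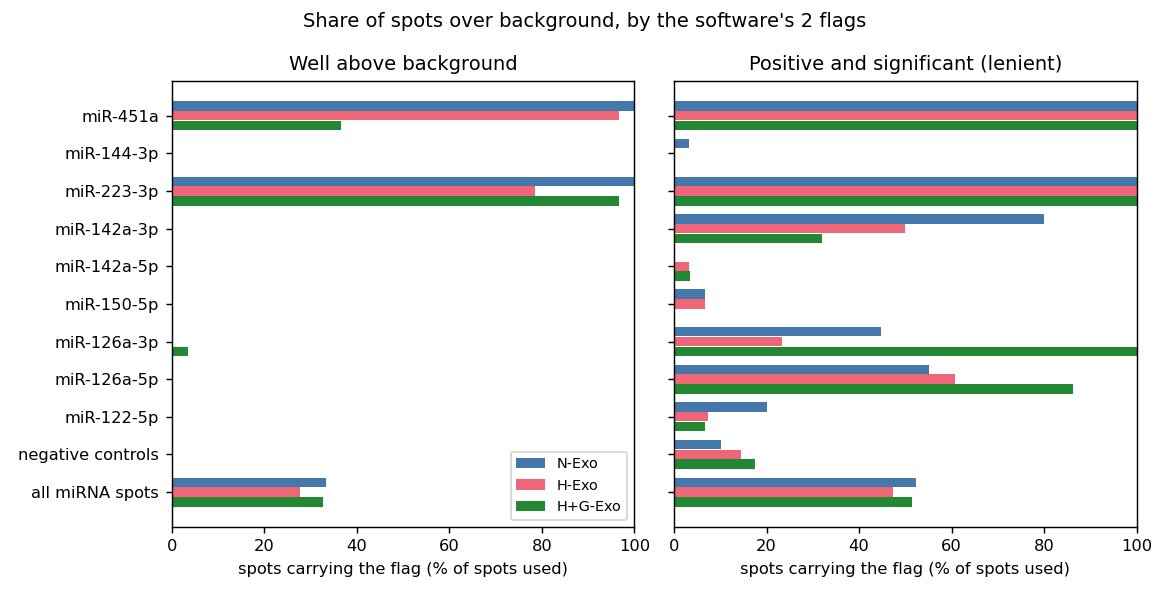
Bars give the share of spots, in percent of the spots used, that were well above background (left) or positive by the lenient test (right) for each of the 9 miRNAs, for the negative controls and for all miRNA spots; colours are the 3 arrays. On the left only miR-451a, miR-223-3p and 1 spot of miR-126a-3p show, while on the right miR-142a-3p and the miR-126a arms also stand above the negative controls, at 10.3% to 17.5%, on every array.

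The software's total per miRNA would have given another picture for 2 members in H+G-Exo. It listed miR-451a there at 361, a value that the listed total of miR-450a-2-3p, 355, and 1 probe of miR-451a add up to, while the own probes of miR-451a summed to 9.73 in the software's units. For miR-126a-3p in H+G-Exo it listed 2245, which the total of miR-125b-5p, 2242, and 1 of its own probes add up to, against 6.92 from both its own probes, and it marked the miRNA as detected. In the authors' deposited value table, on a log2 scale, miR-451a stood at 4.57 for N-Exo, 4.73 for H-Exo and 0.68 for H+G-Exo, and miR-223-3p at 4.06, 3.98 and 3.74. miR-126a-3p stood there at 0.17 in H+G-Exo and at the lowest value of the table's column in the other groups, as did the remaining 6 members on every array.

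To compare groups, signals were divided by a scale factor for each array, the 75th percentile over probes detected on all 3 arrays, with values of 417 for N-Exo, 235 for H-Exo and 469 for H+G-Exo. Scaled signals under 0.0653 were raised to that floor. A miRNA detected on both arrays was called when its fold was 2 or more and its log2 difference exceeded 2 standard errors over spots. The comparisons share arrays with each other. Hypoxia against normoxia asks what low oxygen did to the vesicle RNA, and the arrays with GW4869 ask what the inhibitor did under hypoxia.

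Between H-Exo and N-Exo 0 of the 2 detected members were called, beside 14.9% of the 585 miRNAs detected on both arrays (4.27% higher and 10.6% lower in H-Exo). Of those calls over all miRNAs 28.7% were higher, and 0.74% without scaling. The scaled signal of miR-451a was 0.153 ± 0.0138 in N-Exo and 0.197 ± 0.0153 in H-Exo, a log2 difference of 0.37 (SE 0.044 over spots). That of miR-223-3p was 0.0784 ± 0.0085 and 0.0946 ± 0.0142, a log2 difference of 0.27 (SE 0.069). Both lie close to the median of all 585 miRNAs, 0.34. Without scaling, miR-451a was lower in H-Exo by a log2 difference of -0.46 and miR-223-3p by -0.56, so neither has a direction that holds across scalings.

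Between H+G-Exo and H-Exo 1 of the 2 was called, and lower, beside 32.1% of 570 miRNAs called in all (6.14% higher and 26% lower with GW4869). Of those calls over all miRNAs 19.1% were higher, and 96.4% without scaling. miR-451a was 3.02-fold lower with GW4869, from 0.197 ± 0.0153 to 0.048 ± 0.0103, a log2 difference of -1.59 (SE 0.066). Its H+G-Exo signal was under the floor, and without the floor it was 4.11-fold lower. The unscaled difference was 2.06-fold, and miR-451a was lower and called under each of the 12 alternatives tried. These alternatives were not independent. Scaling by the 75th percentile over all probes or by the median, keeping outlier spots and dropping the detection filter repeated -1.59. In each of these the floor again replaced the H+G-Exo signal. The median of all 570 miRNAs was -0.42, which leaves -1.18 for miR-451a relative to it. That remainder rests on the floor and the background correction, and was -1.61 without the floor and -0.60 with normexp. miR-223-3p went from 0.0946 ± 0.0142 to 0.0615 ± 0.0109, also under the floor. Its log2 difference to the floor was -0.54 (SE 0.084), not called, and without the floor -0.62, or 1.54-fold. Without scaling miR-223-3p was 0.38 higher.

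Between H+G-Exo and N-Exo 1 of the 2 was called lower as well, beside 44.1% of 610 miRNAs called in all (18.2% higher and 25.9% lower in H+G-Exo). Of those calls over all miRNAs 41.3% were higher, and 58.7% with scaling to labelling spike-ins. With the floor in place of its H+G-Exo signal, miR-451a was 2.34-fold lower, a log2 difference of -1.23 (SE 0.068). Without the floor it was 3.18-fold lower, at -1.67 (SE 0.087). With another background correction, normexp with an offset of 50, the log2 difference was -0.70 and miR-451a was not called. miR-223-3p, with the floor likewise in place, differed by -0.26 (SE 0.074), or by -0.35 without the floor, and was not called. The median over all 610 was -0.05. The other 7 members were detected on no array, so no fold is given for them.

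**Figure D3:**
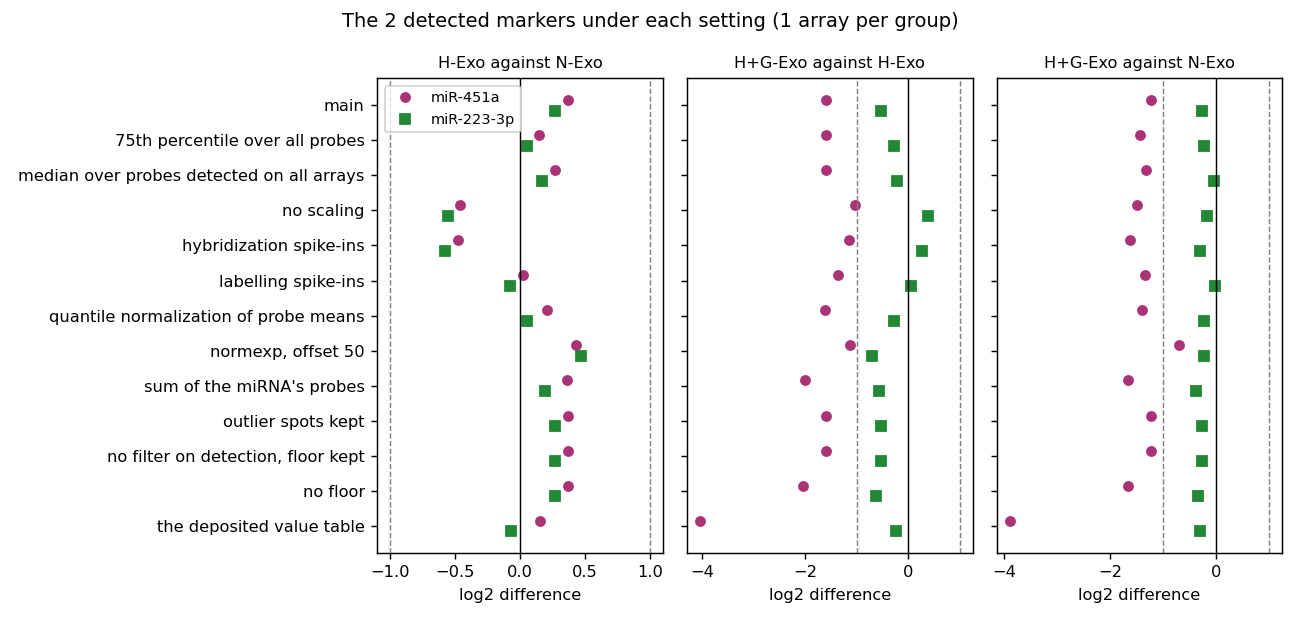
The horizontal axis is the log2 difference of miR-451a (circles) and miR-223-3p (squares) in the 3 comparisons, under the setting used in the text (top row, main) and 12 alternatives; dashed lines mark a 2-fold difference and each group is 1 array. miR-451a lies left of 0 in both comparisons with H+G-Exo under all settings, while miR-223-3p crosses 0 against H-Exo, from -0.70 to 0.38.

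Among all 566 miRNAs detected on the 3 arrays, those whose scaled pattern, with the floor applied, lay nearest to miR-451a were miR-6985-5p, at 0.255, 0.339 and 0.110 in N-Exo, H-Exo and H+G-Exo, and miR-467c-3p, at 0.198, 0.258 and 0.0879. Nearest to miR-223-3p were miR-375-5p, at 0.0781, 0.0946 and 0.0551, and miR-7666-5p, at 0.142, 0.169 and 0.120. Their distances to the member, on the log2 scale over 3 arrays, were 0.0313, 0.0392, 0.0053 and 0.0289. These neighbours depend on the floor, which raised both members in H+G-Exo. Without it they ranked 26 and 30 for miR-451a and 17 and 5 for miR-223-3p. The nearest were then miR-3968 and miR-3106-5p to miR-451a, at distances of 0.127 and 0.156, and miR-7087-5p and miR-6769b-3p to miR-223-3p, at 0.0224 and 0.0447.

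The opposite strand of the miR-451a hairpin encodes miR-451b, which shares 0 bases with miR-451a. Its brightest probe read 16.5 ± 9.85 in N-Exo, 15.3 in H-Exo (spots from -0.683 to 32.3) and 58.9 ± 24.1 in H+G-Exo, where 30 of 30 spots were well above background. It was thus highest where miR-451a was lowest, although the scaled log2 difference of 0.94 (SE 0.301) between H+G-Exo and H-Exo fell short of the call and its spots spread widely. Under the 6 other scalings the difference ran from 1.28 to 1.64, the latter without scaling, and was called higher. With normexp it was -0.21 and not called. Between the same arrays miR-150-3p was lower with GW4869 by a scaled log2 difference of -1.14 (SE 0.164), and of -0.14 without scaling. Of the 8 opposite arms and paralogues of the members, 1 was detected in N-Exo and 2 each in H-Exo and H+G-Exo.

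Of 12 miRNAs listed here for mesenchymal stromal cells, 12 were detected for N-Exo, 11 for H-Exo and 12 for H+G-Exo. Over all miRNAs 36.7%, 31.3% and 36.1% were detected. The list was chosen with earlier results of these data known, so the counts cannot test the label of the cells. miR-145a-5p was the one not detected in H-Exo. The brightest of the list, miR-21a-5p, had a scaled signal of 190 ± 15.4, 81.0 ± 4.11 and 29.7 ± 0.657, miR-125b-5p of 69.0 ± 1.79, 34.9 ± 3.20 and 15.2 ± 0.840, and miR-29a-3p of 20.0 ± 1.04, 10.4 ± 0.236 and 4.14 ± 0.243. Of the stromal list, 9 of 11 miRNAs were called lower under hypoxia than in normoxia, 8 of 11 lower with GW4869 than under hypoxia alone, and 12 of 12 lower in H+G-Exo than in N-Exo, with 0 called higher. Over all miRNAs 10.6%, 26% and 25.9% were called lower in these comparisons. The list's median log2 differences were -1.37, -1.33 and -2.66. Without scaling the counts were 11 of 11, 0 of 11 and 12 of 12 lower, with medians of -2.20, -0.33 and -2.49. Of all miRNAs 134 of 585, 7 of 570 and 141 of 610 were then called lower, with medians of -0.48, 0.57 and 0.071. The calls between H+G-Exo and H-Exo thus rest on the scaling, and scaling to either kind of spike-in also gave 0 of 11. The lower miR-451a in H+G-Exo stood beside stromal miRNAs that were lower than in N-Exo with and without scaling, and the part of that shift in the result was not tested.

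Further miRNAs listed here under the same lineages, but less restricted to them, were also on the array. Of 12 other blood-cell miRNAs on the array, 6 were detected for N-Exo, 5 for H-Exo and 6 for H+G-Exo, led by miR-342-3p (scaled 2.87 ± 0.128, 1.82 ± 0.0761 and 1.68 ± 0.0679), miR-155-5p (2.26 ± 0.101, 1.15 ± 0.105 and 0.808 ± 0.0656) and miR-146a-5p (1.104 ± 0.0319, 0.252 ± 0.0203 and 0.269 ± 0.0191). miR-486a-5p, another red-cell miRNA, differed from miR-451a in its pattern, with unscaled signals of 16.2 ± 3.97 for N-Exo, 11.7 ± 4.16 for H-Exo and 29.5 ± 5.62 for H+G-Exo. It was detected in H+G-Exo only, where 15 of 15 spots were well above background. The scaled signals of miR-486a-5p, 0.0389, 0.0497 and 0.0629, were all under the floor. Without the floor H+G-Exo was higher than H-Exo by a scaled log2 difference of 0.34. miR-363-3p, a further red-cell miRNA, was detected on no array. miR-96-5p, listed here as rich in red cells, was detected on all 3 arrays. Its unscaled signals, 238 ± 18.3, 83.4 ± 6.60 and 42.4 ± 5.78, had the unscaled order of miR-451a. The stromal miR-21a-5p also had that order, at 79440, 19040 and 13949. After scaling, the log2 difference of H-Exo from N-Exo was -0.68 for miR-96-5p and 0.37 for miR-451a. Between H+G-Exo and H-Exo miR-96-5p was called lower, with a scaled log2 difference of -1.97, but not without scaling, where the difference was -0.97. Relative to N-Exo the differences were -2.65 and -2.49, and both were called. Of 4 other endothelial miRNAs 3 were detected on each array, miR-221-3p, miR-222-3p and miR-217-5p, of which miR-221-3p read 1.71 ± 0.116, 0.959 ± 0.0582 and 0.511 ± 0.0309 scaled. Of 9 other liver and gut miRNAs 5, 2 and 2 were detected, led by miR-193b-3p at 1.32 ± 0.0661, 0.677 ± 0.0444 and 0.504 ± 0.0217 and miR-193a-3p at 0.974 ± 0.0385, 0.335 ± 0.0287 and 0.183 ± 0.0111, and miR-192-5p was detected in N-Exo only. Of 17 muscle and neuron miRNAs, a further set from outside the marrow, 6, 2 and 4 were detected. The shares detected over all 1881 miRNAs, beside which the counts of these lists stand, were 36.7%, 31.3% and 36.1%.

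Across the comparisons these lists were called as follows after scaling. Under hypoxia, 1 of 5 blood-cell, 0 of 3 endothelial and 1 of 2 liver and gut miRNAs were called lower than in normoxia. With GW4869 the counts were 1 of 5, 1 of 3 and 0 of 2 below hypoxia alone, and 3 of 5, 3 of 3 and 2 of 2 below normoxia. Beside these, 10.6%, 26% and 25.9% of all miRNAs were called lower in the same order of comparisons. After scaling none was called higher, and the median log2 differences in the last comparison were -1.48, -1.33 and -1.90, beside -0.74 for the 2 detected members. Without scaling 5 of 5, 2 of 3 and 2 of 2 were called lower under hypoxia, and 3 of 5, 2 of 3 and 2 of 2 in H+G-Exo relative to N-Exo. Over all miRNAs 134 of 585 and 141 of 610 were then called lower. Between H+G-Exo and H-Exo none was then called lower, beside 7 of 570 over all miRNAs. miR-146a-5p was called higher, beside 186 of 570. The medians of the 3 lists in that comparison were -0.32, -0.91 and -0.65 after scaling and 0.67, 0.089 and 0.35 without it, so their direction there was set by the scaling.

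**Figure D4:**
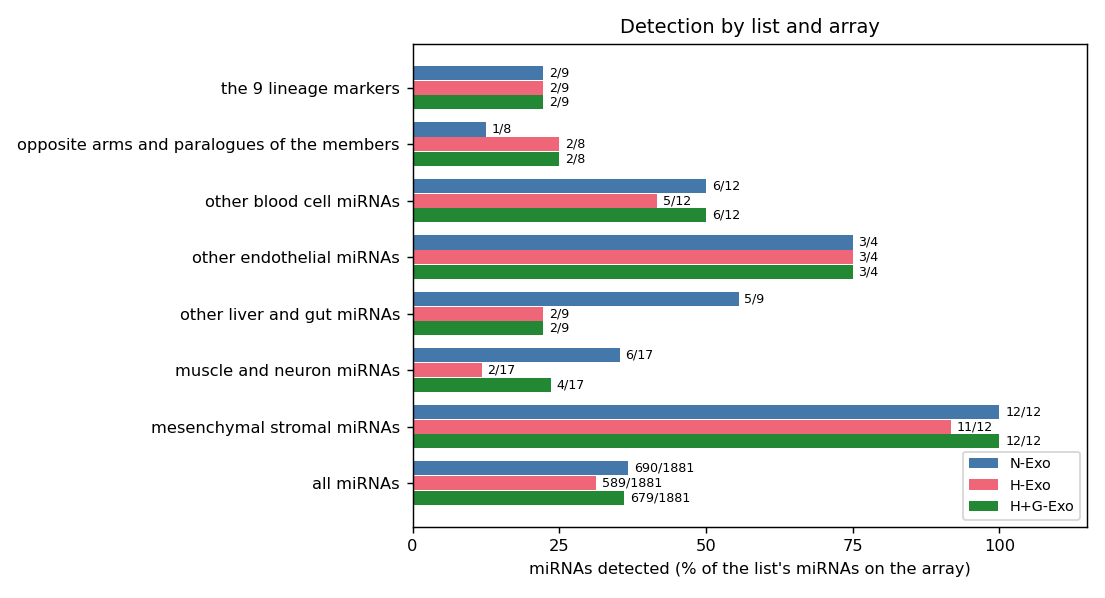
Bars give the share of each list's miRNAs on the array that was detected, in percent, on the 3 arrays, with the counts printed at the bars. The 9 lineage markers stand at 2 of 9 on every array, the mesenchymal stromal list at 11 or 12 of 12 and all miRNAs at 690, 589 and 679 of 1881.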

How the data were processed

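miRNAs were measured on 3 one-colour arrays (Mouse miRNA 21.0), 1 per group, and samples were grouped by their labelled treatment. Scanner images were quantified by the authors with Agilent Feature Extraction 10.7.1.1, per the file headers, and the deposited intensity per spot is background-subtracted, can be below 0 and is not scaled between arrays. The deposited value table was read as log2 values, its column medians are -3.32, -3.00 and -3.30 (N-Exo, H-Exo, H+G-Exo), and how it was scaled is not stated. The labels' protocols name kits for cRNA amplification and cDNA synthesis, unusual for miRNA arrays, so how the RNA was labelled is uncertain. The design text gives 3 samples for each kind of exosome, 1 array of each was analysed here, and pooling is not stated in the sources used here.

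Control spots (2164 of 58594 per array) stayed out of the comparisons, and outlier spots (1568, 1369 and 1466) out of all means. A miRNA took its probe with the highest mean scaled signal. Errors over spots are technical, and the number of arrays limits the precision. The members and lists were chosen with earlier results of these data known. All 9 members were named, with up to 3 of the brightest of each other list, opposite arms, and the 2 miRNAs nearest in pattern to each detected member. miR-486a-5p, miR-363-3p, miR-96-5p, miR-145a-5p and the nearest miRNAs without the floor were named after their values were seen. Alternatives were other scalings, normexp (limma 3.58.1), probe sums, outlier spots kept, no detection filter, no floor, the value table and other detection rules; the lists were recounted under them after the data were seen. Python 3.11.15 and R 4.3.3 were used.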

Additional observations from a re-analysis of the deposited data

How the results depend on the processing

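No paired analysis was possible because each group was 1 array. Leaving out a replicate was not possible for the same reason. Of the 9 members, 1 was detected on each hypoxic array (H-Exo and H+G-Exo) if every spot had to be well above background, and 1 in H+G-Exo if every probe had to be detected. The lenient test, chosen after seeing the data, as was the setting with no floor, gave 4 members on each array. A rule of at least 1 spot well above background, or the software's flag per miRNA, added miR-126a-3p in H+G-Exo. Between H-Exo and N-Exo, miR-451a reversed to -0.46 without scaling and -0.48 with hybridization spike-ins. In the same comparison miR-223-3p reversed to -0.56 without scaling, -0.58 with hybridization spike-ins, -0.077 with labelling spike-ins and -0.072 in the value table. Between H+G-Exo and H-Exo, miR-223-3p reversed to 0.38, 0.27 and 0.054 under no scaling, hybridization spike-ins and labelling spike-ins. With normexp, 0 members were called between H+G-Exo and N-Exo, where miR-451a differed by -0.70, still lower. For all miRNAs, calls between H-Exo and N-Exo went from 87 to 135 without scaling, 137 with hybridization spike-ins and 45 with normexp, between H+G-Exo and H-Exo from 183 to 109 with normexp, and between H+G-Exo and N-Exo from 269 to 174 with normexp. The share of calls that were higher ran from 0.73% to 39.4% under hypoxia relative to normoxia (28.7% as reported), from 15.6% to 96.4% with GW4869 relative to hypoxia alone (19.1%) and from 34.5% to 58.7% with GW4869 relative to normoxia (41.3%). The cause was not tested. Under all alternatives miR-451a was lower in H+G-Exo, by log2 differences from -2.04 to -1.04 relative to H-Exo and from -1.67 to -0.70 relative to N-Exo, apart from the value table at -4.05 and -3.89. In H+G-Exo the software's total for miR-451a held that of another miRNA, and how the table's entry was made is not stated. Signal over background limits the 7 undetected members, which may be present under the rule.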
